A study of Mus musculus with 6 samples.

Results

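Pericentral genes are the genes that hepatocytes around the central vein of the liver lobule express more strongly than hepatocytes near the portal vein. The 10 followed here, Glul, Slc1a2, Rhbg, Oat, Cyp2e1, Cyp1a2, Aldh1a1, Gulo, Rgn and Lect2, were found by symbol among the 55401 genes of the deposited table. They were picked with the contrast between the genotypes below already known. Their differences between genotypes are therefore a description, with no test of their own, and support nothing by themselves.

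The 6 livers came from male mice, aged 8 weeks when they were put on MCD for 5 weeks. The labels do not spell out MCD, a usual short form of methionine- and choline-deficient diet. All mice carried floxed Prdx1 alleles, written Prdx1(lox/lox). The 3 control mice had no Cre, and the 3 knockout mice, Prdx1(lox/lox);Alb-cre, carried Cre under the albumin promoter, which is active in hepatocytes. Prdx1 encodes peroxiredoxin 1, a peroxide-reducing enzyme. No group had Cre without floxed alleles and no group was off MCD, so effects of the transgene and of losing Prdx1 cannot be told apart, and nothing here describes mice on another diet. Deposited counts totalled 63189210 to 67319086 per control library and 58790874 to 78291273 per knockout library. Prdx1 itself stood at 644, 569.8 and 663 CPM in control livers and 78.7, 111 and 75.4 CPM in knockout livers (CPM, counts relative to library size with TMM factors), lower in the knockouts as labelled, and albumin, the marker of hepatocytes, was the highest of the general hepatocyte genes in both groups. In a quasi-likelihood fit of 18931 genes by edgeR, 37.9% passed a Benjamini-Hochberg adjusted p of 0.05, 3767 higher and 3415 lower in the knockouts. With library sizes alone as the scaling, 6459 were higher and 1249 lower, and the median of all genes moved from 0.05 to 0.41 on the log2 scale.

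Blood enters the lobule at the portal vein and leaves at the central vein. Endothelial cells of the central vein release Wnt2, Wnt9b and the Wnt enhancer R-spondin 3, and in hepatocytes close by beta-catenin, acting with TCF/LEF factors, keeps pericentral genes on. These hepatocytes bind the ammonia that escaped the urea cycle upstream into glutamine, and they carry much of the cytochrome P450 activity of the liver.

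Promoter sequences of RefSeq (GRCm38.p6) were found for 7 of the 10 genes, in 8 windows; Rhbg, Gulo and Rgn had no entry. The 250 bases upstream of each start site were searched on both strands for CTTTGA, a core of the TCF/LEF site, and 5 of the 7 genes held it. Over all promoters in the table, 15.8% of 27025 genes held it. So did 4 of 20 other pericentral genes, 4 of 15 periportal genes, 3 of 14 general hepatocyte genes and 4 of 12 Wnt targets and brakes with an entry. Median GC content was 47.6% in the members' windows and 52.4% over all windows. The TATA box TATAAA was found for 2 of the 7 genes (14.3% of all genes), and the HNF4A motifs CAAAGTCCA and CAAAGGTCA for 0 of 7 (0.451% and 0.485% of all genes). TCAAAG, the reverse complement of CTTTGA, shares the letters CAAAG with both HNF4A motifs, so the searches can overlap. A match describes letters in a window and is no evidence of binding, and a missing match says nothing about the factor.

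The windows that follow set the members holding the core beside Glul, which holds none. They read 5′ to 3′ on the strand of the gene, and capitals mark CTTTGA, its reverse complement TCAAAG, and TATAAA. In Cyp2e1 the core begins 135 bases and the TATA box 31 bases before the start site. Aldh1a1 holds the core 3 times, beginning 147, 130 and 88 bases before the start, and its other window, 109253 bases away from the gene's start in the deposited table, holds none. For Slc1a2 the RefSeq start lies 47779 bases from the start in the deposited table.
Cyp2e1 (chr7:140763569-140763818, plus strand): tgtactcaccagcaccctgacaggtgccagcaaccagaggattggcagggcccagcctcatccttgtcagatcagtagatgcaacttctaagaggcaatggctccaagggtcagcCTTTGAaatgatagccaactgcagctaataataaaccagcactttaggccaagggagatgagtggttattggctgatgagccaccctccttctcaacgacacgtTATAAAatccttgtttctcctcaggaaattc
Cyp1a2 (chr9:57683656-57683905, minus strand): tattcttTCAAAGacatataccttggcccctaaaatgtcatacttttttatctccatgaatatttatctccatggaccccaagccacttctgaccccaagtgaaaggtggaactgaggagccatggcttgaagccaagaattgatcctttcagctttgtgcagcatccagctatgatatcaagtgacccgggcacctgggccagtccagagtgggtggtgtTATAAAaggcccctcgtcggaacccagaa
Slc1a2 (chr2:102706188-102706437, plus strand): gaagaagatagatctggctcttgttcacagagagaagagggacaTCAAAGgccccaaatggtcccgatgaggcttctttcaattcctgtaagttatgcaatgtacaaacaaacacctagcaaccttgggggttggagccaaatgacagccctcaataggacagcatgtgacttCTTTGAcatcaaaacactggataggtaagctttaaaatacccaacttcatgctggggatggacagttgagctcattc
Aldh1a1 (chr19:20492333-20492582, plus strand): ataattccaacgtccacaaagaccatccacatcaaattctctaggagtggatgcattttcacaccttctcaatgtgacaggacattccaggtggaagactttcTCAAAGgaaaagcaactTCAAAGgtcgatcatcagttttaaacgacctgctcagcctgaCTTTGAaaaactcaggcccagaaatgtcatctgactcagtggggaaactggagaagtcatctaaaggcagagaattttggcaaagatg
Lect2 (chr13:56548539-56548788, minus strand): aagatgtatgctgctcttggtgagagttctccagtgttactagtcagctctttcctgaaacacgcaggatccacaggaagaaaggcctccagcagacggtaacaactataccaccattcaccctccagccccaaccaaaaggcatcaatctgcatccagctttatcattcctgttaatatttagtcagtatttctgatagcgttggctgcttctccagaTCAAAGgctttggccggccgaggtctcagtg
Glul (chr1:153899679-153899928, plus strand): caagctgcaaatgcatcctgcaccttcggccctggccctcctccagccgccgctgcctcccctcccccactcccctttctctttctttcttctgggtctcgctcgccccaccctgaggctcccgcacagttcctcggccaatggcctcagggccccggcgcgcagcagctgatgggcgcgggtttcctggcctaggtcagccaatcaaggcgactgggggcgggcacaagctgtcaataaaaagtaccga

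All 10 genes were lower in every knockout liver than in any control liver. The median log2 fold change of the members (knockout minus control, TMM-scaled counts) was -2.15, from -3.87 for Slc1a2 to -0.96 for Lect2, beside 0.05 over all tested genes. The edgeR fit over all genes includes the 10, and its calls for them are given as a description only. It called 10 of 10 lower, beside 18.0% of all tested genes, and 0 of 10 higher, beside 19.9%. All 10 had knockouts wholly below controls, beside 24.2% of all tested genes, and 0 of 10 wholly above, beside 28.8%. At least 2-fold lower and past edgeR's threshold were 9 of 10, beside 3.83%. That count depends on the scaling: with library sizes alone it was 7, with Cyp2e1 at -0.91, Gulo at -0.69 and Lect2 at -0.60, and on log2(FPKM + 0.5) the same 3 genes were under 2-fold. Gulo was also under 2-fold without control replicate 2 (-0.998) and without knockout replicate 1 (-0.96). Lect2, in turn, was past 2-fold without control replicate 1 (-1.03), control replicate 3 (-1.004) or knockout replicate 3 (-1.014). Since the genes were chosen on this contrast, nothing is read from these counts. In bulk tissue, fewer pericentral hepatocytes and less RNA per cell cannot be told apart.

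**Figure D1:**
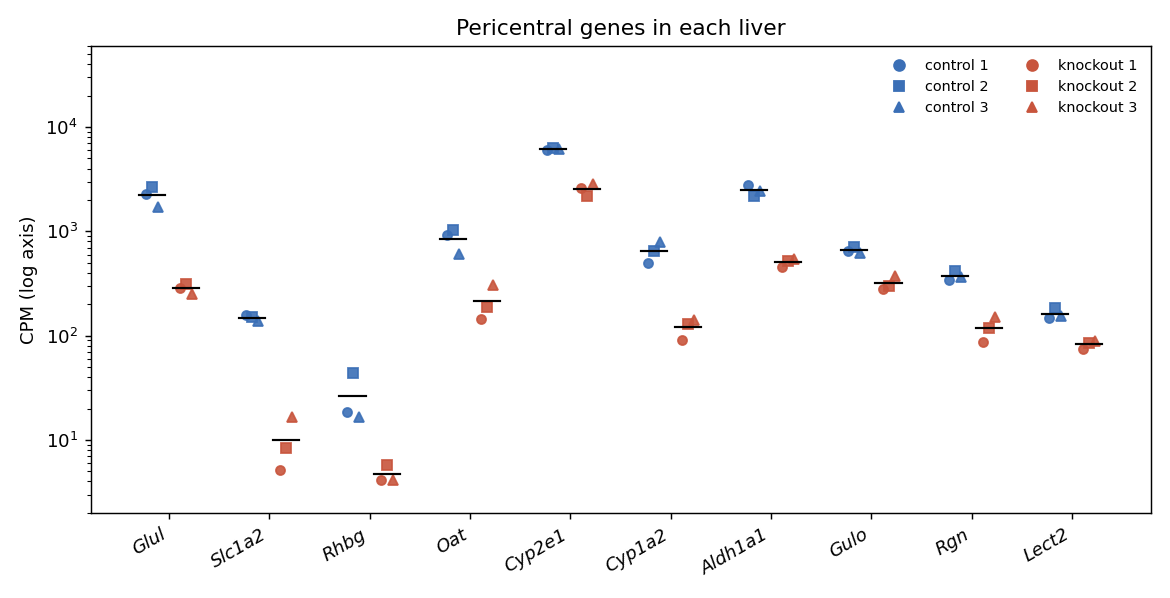
Level of each pericentral gene in each liver, in CPM on a log axis; blue is control, red is knockout, symbol shape gives the replicate and bars are group means. In every gene the 3 knockouts lie below the 3 controls, from Slc1a2 with means of 148 and 10.1 CPM to Lect2 with 162 and 82.9 CPM.

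Of the genes of nitrogen handling, Slc1a2 and Glul had the largest differences among the 10. Glul (chr1:153899944-153909723, GRCm38, as for all positions here), glutamine synthetase, which joins ammonia to glutamate, measured 2262, 2681 and 1728 CPM in control livers and 285, 315 and 253 CPM in knockout livers. The lowest control was 5.48 times the highest knockout. The knockout mean was 12.8% of the control mean, a log2 fold change of -2.97 ± 0.18 (SE). The gene model Mir8114 overlaps Glul on the same strand and took 0.0178, 121 and 81.2 CPM in the controls; its part in the level of Glul was not tested. Slc1a2 (chr2:102658659-102790784), the glutamate transporter GLT-1, which brings glutamate into pericentral cells, measured 156, 150.5 and 138 CPM in control livers and 5.17, 8.34 and 16.8 CPM in knockout livers. Controls were close together, while knockout 3 lay above the other knockouts. The knockout mean was 6.81% of the control mean and the log2 fold change -3.87 ± 0.40 (SE); on log2(FPKM + 1) it was -2.53.

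Rhbg (chr3:88242874-88254709), an ammonia channel of the Rhesus family, measured 18.4, 43.9 and 16.5 CPM in control livers and 4.17, 5.76 and 4.12 CPM in knockout livers. Control 2 was above the sum of the other controls. The log2 fold change was -2.49 ± 0.39 (SE), and -1.90 without control replicate 2. The level of Rhbg is uncertain, because 59.4% of the 100-base windows of its transcript also occur in the overlapping gene model Gm38392, which had 0 counts in all 6 libraries. Oat (chr7:132557478-132576398), ornithine aminotransferase, which links ornithine to glutamate, measured 914, 1041 and 607 CPM in control livers and 144, 189 and 306 CPM in knockout livers. Control 3 was the lowest control and knockout 3 the highest knockout, and the log2 fold change was -2.005 ± 0.30 (SE). Oat lies within the bounds of Fgfr2 on the same strand, and Fgfr2 was at 49.6 ± 5.59 CPM in controls and 99.8 ± 20.2 CPM in knockouts (SD, n = 3 each), the opposite direction.

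Among the oxidising enzymes, Cyp2e1 (chr7:140763739-140774987), a cytochrome P450 that oxidises ethanol and paracetamol, measured 6017, 6337 and 6139 CPM in control livers and 2596, 2189 and 2834 CPM in knockout livers. The coefficient of variation of the controls was 2.62%, the smallest of the 10 genes. The knockout mean was 41.2% of the control mean, a log2 fold change of -1.28 ± 0.11 (SE). Cyp1a2 (chr9:57676937-57683703), a P450 that oxidises caffeine and is induced through the aryl hydrocarbon receptor, measured 493, 647 and 787 CPM in control livers and 91.3, 131 and 139.9 CPM in knockout livers. Its knockout mean was 18.8% of the control mean, a log2 fold change of -2.41 ± 0.22 (SE). Aldh1a1 (chr19:20492715-20643465), which oxidises retinaldehyde to retinoic acid, measured 2791, 2205 and 2421 CPM in control livers and 456, 525 and 539 CPM in knockout livers. The groups were again apart, at 20.5% of the control mean and a log2 fold change of -2.29 ± 0.12 (SE). Of its 2259 windows of 100 bases, 1 occurs in the paralog Aldh1a7, and of 1841 windows of Cyp1a2, 38 occur in Cyp1a1.

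Gulo and Rgn encode the last steps of vitamin C synthesis, which mice retain. Gulo (chr14:65986786-66009207), gulonolactone oxidase, measured 652, 707 and 619.8 CPM in control livers and 281, 299 and 376 CPM in knockout livers. Rgn (chrX:20549787-20562089), regucalcin, the lactonase acting just before it, measured 344, 414 and 362 CPM in control livers and 86.5, 119 and 152 CPM in knockout livers. These 2 steps of 1 pathway stood at 48.3% and 31.9% of control, with log2 fold changes of -1.05 ± 0.12 for Gulo and -1.65 ± 0.20 for Rgn (SE). Lect2 (chr13:56542464-56548502), a protein that hepatocytes secrete, measured 147, 186 and 153 CPM in control livers and 73.9, 85.3 and 89.4 CPM in knockout livers. It had the smallest difference of the 10, at 51.2% of control and a log2 fold change of -0.96 ± 0.12 (SE).

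The order of the members by level differed between the genotypes. By deposited FPKM, which is per length and lets genes be compared, Cyp2e1 led in the controls at 2298 ± 31.99 (SD, n = 3 throughout), followed by Glul at 473 ± 97.6, Aldh1a1 at 403 ± 52.9 and Oat at 291 ± 74.2. Next came Cyp1a2 at 257 ± 58.2, Gulo at 234 ± 13.5, Rgn at 187 ± 15.8 and Lect2 at 141 ± 16.3, and Rhbg at 10.9 ± 6.202 and Slc1a2 at 9.08 ± 0.604 were lowest. Neighbours that overlapped between control livers were Glul and Aldh1a1, Oat and Cyp1a2, Cyp1a2 and Gulo, and Rhbg and Slc1a2. In the knockouts Cyp2e1 still led at 1203 ± 129 FPKM, Gulo stood at place 2 in place of 6 with 144 ± 18.4, and Glul at place 6 in place of 2 with 77.1 ± 10.5. Aldh1a1 stood at 105 ± 7.84, Lect2 at 92.3 ± 7.34, Oat at 91.7 ± 33.2, Rgn at 75.7 ± 18.9, Cyp1a2 at 61.2 ± 12.2, Rhbg at 2.48 ± 0.538 and Slc1a2 at 0.777 ± 0.438. From Aldh1a1 down to Cyp1a2 each gene overlapped its neighbour in that order.

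The livers within a group did not rank the same way for all members. Knockout 3 had the highest level of its group for 8 of the 10 genes and the lowest for Glul and Rhbg. Knockout 1 had the lowest for 7 genes. Control 2 had the highest level of its group for 7 genes and control 3 the lowest for 5. On a log2 scale, knockout 3 lay 0.86 above its group's mean for Slc1a2 and 0.59 above for Oat, and for Glul at -0.16.

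Of 17 genes that hepatocytes express in all zones, 11 fell, 0 rose and 6 did not pass, beside 18.0% of all tested genes that fell. Their median log2 fold change was -0.61, but -0.24 with library sizes alone, where 7 fell, and -0.26 on log2(FPKM + 0.5), where limma called 5 lower. Ambp, Fga, Fgb, Fgg and Trf, which did not pass and are named with their values in view, had negative fold changes by TMM and positive ones with library sizes alone (0.25, 0.29, 0.20, 0.16 and 0.04). Apoa2, an apolipoprotein of HDL, fell by 1.18, the asialoglycoprotein receptor subunit Asgr1 by 0.78, the retinol carrier Rbp4 by 0.61, and Hnf4a, a transcription factor of hepatocyte identity, by 0.80 on the log2 scale (edgeR adjusted p = 0.000292, 0.000254, 0.000887 and 0.000703). In each of these 4, which had the smallest p of the list, knockouts lay wholly below controls. The same held for 12 of the 17 genes, beside 24.2% of all tested genes. Alb, albumin, fell by 0.81 (edgeR adjusted p = 0.00366).

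Set against the mean of these 17 genes in the same liver, which removes the scaling between libraries, all 10 members lay lower in every knockout than in any control. The share of all tested genes on this scale was not computed. Since the members were chosen on this contrast, the count is a description and nothing is read from it. Glul was at -0.15 ± 0.25 relative to that mean in controls and -2.55 ± 0.30 in knockouts (log2, SD, n = 3 each). The difference between genotypes on this scale was -3.41 for Slc1a2, -2.40 for Glul, -1.86 for Cyp1a2, -1.73 for Aldh1a1, -1.69 for Rhbg, -1.49 for Oat and -1.13 for Rgn. It was -0.74 for Cyp2e1, -0.51 for Gulo and -0.41 for Lect2, the smallest.

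**Figure D2:**
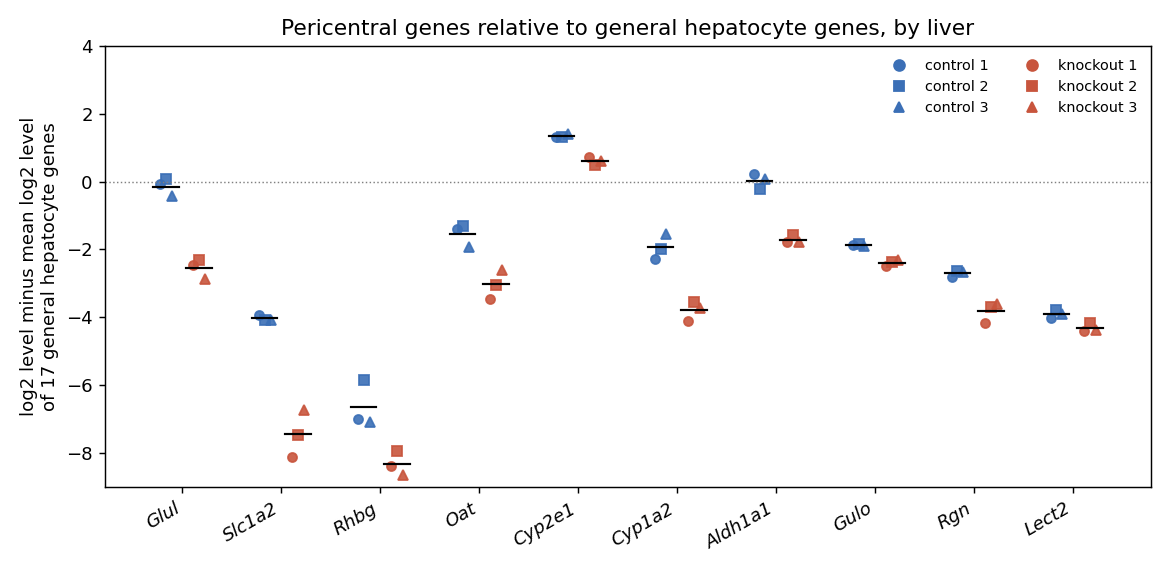
Log2 level of each pericentral gene minus the mean log2 level of 17 general hepatocyte genes in the same liver; blue is control, red is knockout, symbol shape gives the replicate and bars are group means. The gap between genotypes is widest for Slc1a2 (-3.41) and narrowest for Lect2 (-0.41), and the knockouts lie below the controls in all 10. These values are a description, with no test.

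Other pericentral genes, from a list that holds none of the 10, fell more often than they rose. The list was chosen with earlier results of these data known, so its calls are no independent support. Of 28, 16 fell, 1 rose and 11 missed the threshold; the median log2 fold change was -0.81. Over all tested genes 18.0% fell and 19.9% rose. With library sizes alone 13 fell and 3 rose and the median was -0.44, and on log2(FPKM + 0.5) it was -0.46. Slco1b2, a hepatic uptake carrier for organic anions, measured 869.8, 866 and 786 CPM in control livers and 301, 295 and 369 CPM in knockout livers. It had no overlap between the groups (log2 fold change -1.39 ± 0.11, SE, edgeR adjusted p = 0.000123). The glutathione transferase Gstm2 fell by 1.03 and the paraoxonase Pon1 by 0.81 on the log2 scale (edgeR adjusted p = 0.000227 and 0.000552). The gene that rose, the dicarboxylate transporter Slc13a3, named with its value in view, went from 44.3 ± 8.400 to 66.4 ± 5.698 CPM (SD, n = 3 each, edgeR adjusted p = 0.0171). Without knockout replicate 2 or 3 it no longer passed (edgeR adjusted p = 0.0589 and 0.0547), which left 0 that rose. Members of the Cyp2c, Cyp3a and Gstm families in the list have close copies between which reads can be split.

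Periportal genes, which mark the other end of the lobule, also fell more often than they rose. Of 22, 9 fell (40.9%), 2 rose (9.09%) and 11 missed the threshold, and the median was -0.63. The shares of all tested genes were 18.0% that fell and 19.9% that rose. With library sizes alone 8 fell and 3 rose and the median was -0.27, and on log2(FPKM + 0.5) it was -0.30. Cyp2f2, a P450 of periportal cells, measured 700.5, 919.8 and 750.2 CPM in control livers and 88.3, 109.9 and 139 CPM in knockout livers, a log2 fold change of -2.81 beside -2.97 for Glul. Tat, tyrosine aminotransferase, fell by 1.34 and the aldehyde dehydrogenase Aldh1b1 by 1.71, while Cdh1, E-cadherin, which bile duct cells also express, rose by 1.68 on the log2 scale (edgeR adjusted p = 0.000109, 0.000111 and 0.000203). The urea cycle enzymes Cps1 and Ass1, named with their values in view, did not pass, with Cps1 at 3412 ± 193 and 3394 ± 649 CPM and Ass1 at 1679 ± 51.4 and 1679 ± 288 CPM in controls and knockouts (SD, n = 3 each). The listed urea cycle enzymes Otc, Asl and Arg1 are also named with their values in view. Otc fell by 0.80 on the log2 scale (edgeR adjusted p = 0.00158), and by 0.44 with library sizes alone. Asl at -0.58 and Arg1 at -0.07 did not pass (edgeR adjusted p = 0.0607 and 0.761). Of 4 mid-lobule genes, Cyp8b1, the sterol hydroxylase that makes cholic acid, fell by 4.63, while Hamp at -0.13, Igfbp2 at -0.23 and Hamp2 at -0.35 did not pass.

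Within each liver, the mean log2(CPM + 0.5) of the 28 other pericentral genes was set against that of the 22 periportal genes. The difference was -1.17, -1.13 and -1.23 in control livers and -1.58, -1.56 and -1.21 in knockout livers. Knockouts 1 and 2 lay below all controls, and knockout 3 lay among them. The group means differed by -0.27, and an exact two-sided permutation test over the 6 livers gave p = 0.2, where 0.1 is the smallest value it can give. Both lists and the test were chosen with earlier results of these data known. The periportal list holds Cdh1, which bile duct cells also express, and Ctsc, named with its value in view. These 2 genes rose by 1.68 and 0.49 on the log2 scale. The difference was not computed without them, and no shift of hepatocyte zones is read from it. Without knockout replicate 3 the difference was -0.39. The pericentral mean alone was 7.44 ± 0.02 in controls and 6.57 ± 0.42 in knockouts, and the periportal mean 8.62 ± 0.06 and 8.02 ± 0.21 (SD, n = 3 each), each with an exact permutation p = 0.1. Unlike the difference, these 2 means depend on the TMM scaling, and their p is given on that scaling only. With library sizes alone the median fold changes of these lists moved from -0.81 to -0.44 (pericentral) and from -0.63 to -0.27 (periportal).

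**Figure D3:**
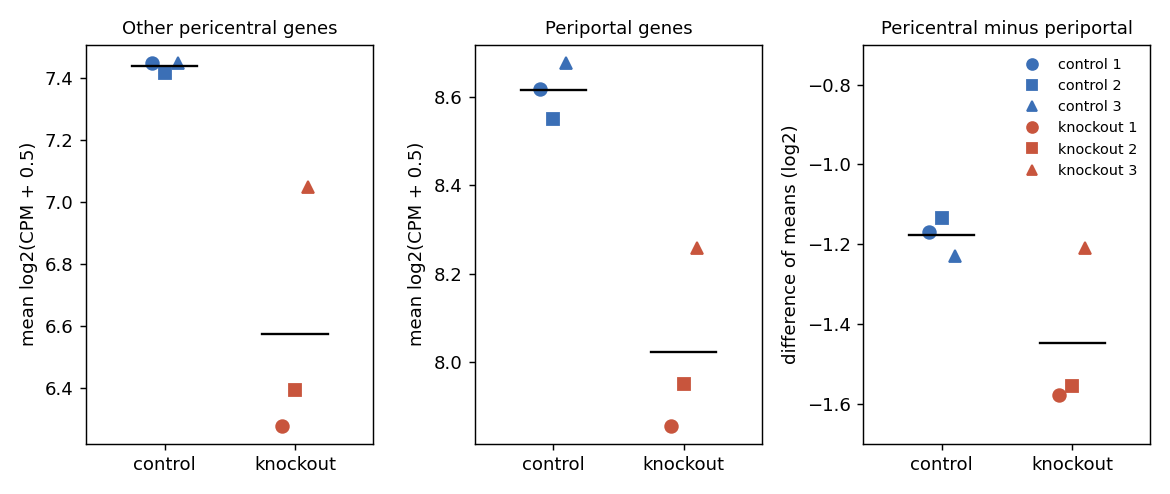
Mean log2(CPM + 0.5) of 28 other pericentral genes, of 22 periportal genes, and their difference, in each liver; blue is control, red is knockout, symbol shape gives the replicate and bars are group means. Knockouts 1 and 2 have differences of -1.58 and -1.56, and knockout 3, at -1.21, lies within the control range of -1.23 to -1.13.

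Wnt target genes gave mixed results. Lgr5, the R-spondin receptor and a target in pericentral cells, measured 9.94, 12.6 and 9.67 CPM in control livers and 1.93, 3.15 and 9.65 CPM in knockout livers. Knockouts 1 and 2 were far below the controls, and knockout 3 was just under the lowest of them. By deposited FPKM, knockout 3 at 0.928 lay above control 1 at 0.784 and control 3 at 0.756, so the groups overlapped. The log2 fold change of -1.13 ± 0.53 (SE) did not pass (edgeR adjusted p = 0.137), whereas DESeq2 called it lower (adjusted p = 0.0486). Tbx3, a transcription factor, measured 20.01, 13.3 and 17.9 CPM in control livers and 8.503, 7.53 and 20.4 CPM in knockout livers. Knockout 3 was again apart from the other knockouts (edgeR adjusted p = 0.356). Axin2, which feeds back on beta-catenin, measured 13.8, 16.4 and 14.9 CPM in control livers and 13.6, 8.99 and 17.4 CPM in knockout livers. Its groups overlapped (edgeR adjusted p = 0.598). For Glul, knockout 3 was the lowest of the 6 livers.

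Of 16 tested Wnt targets and brakes, 4 rose (25%), 2 fell (12.5%) and 10 missed the threshold. Of all tested genes, 19.9% rose and 18.0% fell. The list's median of -0.03 was 0.34 with library sizes alone. The number that fell was 0 without control replicate 3 or knockout replicate 1, and 4 without knockout replicate 3. Both genes that fell are named with their values in view. Sp5, a target encoding a transcription factor, went from 3.81 ± 1.14 to 0.8096 ± 0.546 CPM (edgeR adjusted p = 0.0214), and Ccnd1, cyclin D1, fell by 0.43 on the log2 scale (edgeR adjusted p = 0.0265). The Sp5 call was lost without control replicate 3 (edgeR adjusted p = 0.0648) and without knockout replicate 1 (0.0576). The Ccnd1 call was lost without control replicate 2 or 3 or knockout replicate 1 or 3 (edgeR adjusted p 0.0515 to 0.0966), and its log2 fold change was -0.06 with library sizes alone and -0.08 on log2(FPKM + 0.5). Dkk3, related to the Dickkopf inhibitors, rose from 9.84 ± 0.772 to 59.3 ± 6.15 CPM, Frzb, a secreted Frizzled-related protein, from 8.13 ± 2.24 to 30.5 ± 1.53 CPM and Sfrp1, of the same family, from 1.504 ± 0.665 to 5.896 ± 2.48 CPM (SD, n = 3 each). Nkd1, a feedback target, rose from 10.97 ± 2.02 to 17.7 ± 2.69 CPM, and no longer passed without control replicate 2 (edgeR adjusted p = 0.05300) or knockout replicate 3 (0.0614).

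The central vein signals themselves were low. Wnt2 measured 5.82, 6.38 and 5.66 CPM in control livers and 4.32, 5.95 and 6.12 CPM in knockout livers. Rspo3 measured 13.02, 10.1 and 14.2 CPM in control livers and 15.8, 13.7 and 14.5 CPM in knockout livers. Both overlapped between genotypes (edgeR adjusted p = 0.661 and 0.273). Wnt9b measured 1.68, 1.74 and 3.405 CPM in control livers and 9.05, 5.06 and 7.09 CPM in knockout livers and rose (edgeR adjusted p = 0.00838). Wnt4 rose from 2.97 ± 0.644 to 12.7 ± 3.75 CPM and Wnt5a from 2.901 ± 0.0643 to 10.2 ± 2.77 CPM. Wnt11 measured 0, 0.0684 and 0 CPM in control livers and 1.47, 2.14 and 1.73 CPM in knockout livers. With the ligand carrier Wls, which rose from 10.5 ± 3.51 to 31.3 ± 3.23 CPM, 5 of 9 tested ligand and carrier genes rose, beside 19.9% of all tested genes. Among these 9, 0 fell (1 without knockout replicate 2), beside 18.0%, and 4 missed the threshold. Their median was 1.58 by TMM-scaled counts and 0.89 by log2(FPKM + 0.5).

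Of 13 tested Wnt receptors, 4 rose (30.8%), 1 fell (7.69%) and 8 missed the threshold, with a median of 0.20. All tested genes had 19.9% that rose and 18.0% that fell. With library sizes alone 9 receptors rose and 0 fell. The Frizzled receptors Fzd1, Fzd6 and Fzd3 rose from 17.2 ± 1.396 to 52.8 ± 10.7 CPM, from 4.66 ± 0.5898 to 14.5 ± 1.096 CPM and from 0.241 ± 0.242 to 2.19 ± 0.453 CPM. Lgr4, the R-spondin receptor of hepatocytes, fell by 0.41 on the log2 scale (-0.04 with library sizes alone), but missed the threshold without control replicate 2 or 3 or knockout replicate 1 or 2 (edgeR adjusted p up to 0.107), and without knockout replicate 3 the number that fell was 2. Of 15 genes acting inside the cell, 3 rose (20%, near the 19.9% of all tested genes) and 1 fell (6.67%, beside 18.0%). Among these 15, 11 missed the threshold. Without knockout replicate 3, 1 rose, and without knockout replicate 2, 2 fell. The list's median of -0.05 was 0.31 with library sizes alone. Ctnnb1, which encodes beta-catenin and is named with its value in view, did not pass, at 297 ± 39.9 and 349 ± 39.8 CPM (SD, n = 3 each). Dvl1, which relays the signal from the receptor, fell by 0.71, and Bcl9, a partner of beta-catenin, rose by 1.24 (edgeR adjusted p = 0.000625 and 0.0008400). Tcf7l1, of the TCF family, rose by 0.63 and Dvl2 by 0.42 (edgeR adjusted p = 0.0151 and 0.0298), the first call lost without knockout replicate 3 and the second without each library in turn (edgeR adjusted p 0.0551 to 0.1002). Over all 50 tested Wnt pathway genes 16 rose (32%) and 4 fell (8%), beside 19.9% and 18.0% of all tested genes. With library sizes alone 25 rose and 2 fell. Without control replicate 3 or knockout replicate 1 the number that fell was 1.

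**Figure D4:**
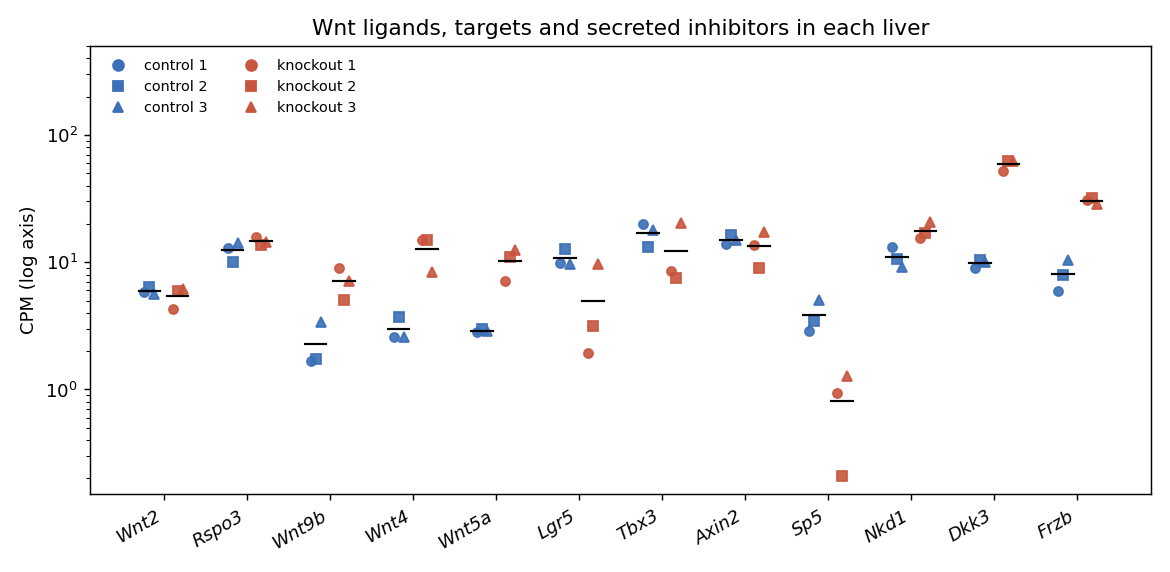
Levels of Wnt pathway genes in each liver, in CPM on a log axis; blue is control, red is knockout, symbol shape gives the replicate and bars are group means. Lgr5 and Tbx3 of knockout 3 lie at 9.65 and 20.4 CPM, apart from the other knockouts, while Wnt2 and Rspo3 overlap between genotypes.

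Markers of other cell types differed beside these results. The counts below stand beside 19.9% of all tested genes that rose and 18.0% that fell. The summed level of 8 bile duct markers was 63.5 to 79.8 CPM in control and 1108 to 1296 CPM in knockout livers, and 8 of 8 rose. For 8 stellate cell and fibroblast markers it was 613 to 714 CPM in control and 2007 to 2289.7 CPM in knockout livers, with 7 of 8 that rose, and for 8 macrophage markers 1002 to 1202 CPM in control and 2435 to 2693 CPM in knockout livers, with 8 of 8. The 8 lymphocyte and neutrophil markers summed to 8.38 to 10.3 CPM in control and 14.97 to 15.4 CPM in knockout livers, with 4 that rose (2 without control replicate 2 or knockout replicate 2 or 3) and 1 that fell, and Ngp was at 0 in all controls. The 5 central vein endothelial genes, among them Wnt2, Wnt9b and Rspo3, summed to 48.6 to 61.6 CPM in control and 61.4 to 85.03 CPM in knockout livers, and 1 of 5 rose (3 with library sizes alone, and 2 without knockout replicate 3). The 8 sinusoidal markers summed to 541 to 598 CPM in control and 411 to 484 CPM in knockout livers, and 3 of 8 fell; with library sizes alone 2 fell and 1 rose. The part of these cells in the levels of the 10 members and of the Wnt genes was not tested.

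**Figure D5:**
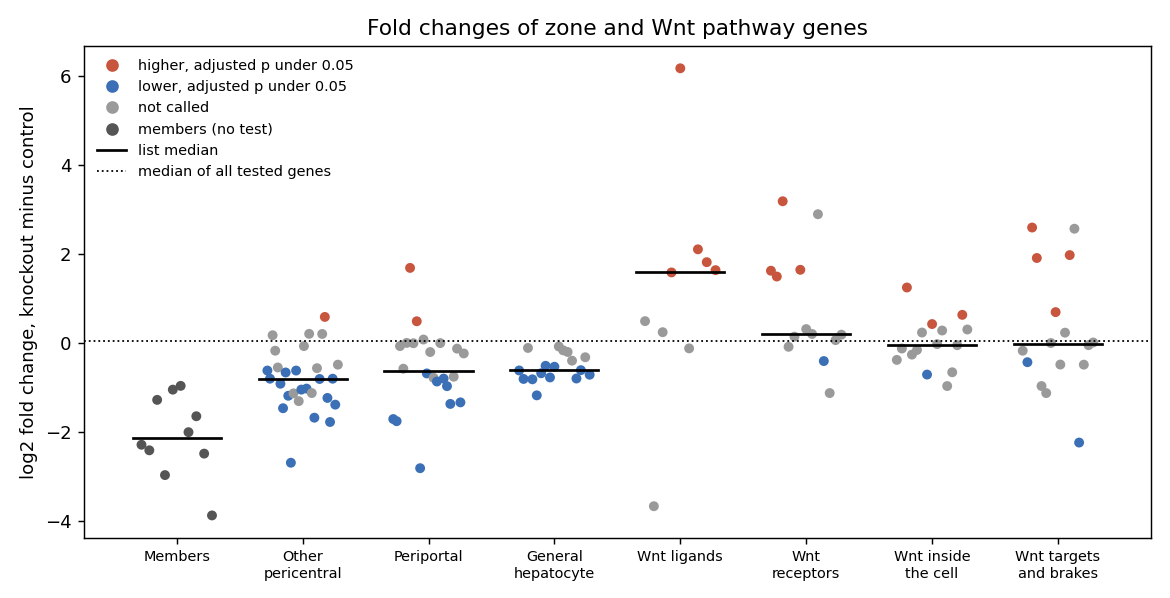
Log2 fold change (knockout minus control, TMM-scaled counts) of each tested gene, grouped by list, with list medians as bars and the median of all tested genes (0.05) as a dotted line. Red and blue points were called higher and lower by edgeR, light grey points were not, and the members (dark grey) are a description, with no test of their own. List medians include -2.15 for the members, -0.81 for other pericentral genes and -0.63 for periportal genes.

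Partners of the members in their own pathways were mixed. Their counts stand beside 18.0% of all tested genes that fell and 19.9% that rose. Of 19 tested genes of glutamate and ammonia handling, 8 fell, 3 rose (1 without control replicate 1) and 8 missed the threshold, with a median of -0.27; with library sizes alone 6 fell and 5 rose, with a median of 0.09. Proline dehydrogenase, Prodh, fell by 0.81, the aspartate aminotransferase Got2 by 0.68, the amino acid carrier Slc38a2 by 0.86 and Aldh4a1, which makes glutamate on the route from proline, by 0.73 (edgeR adjusted p = 0.000363, 0.000469, 0.000761 and 0.000798). Gls2, the glutaminase of periportal hepatocytes, named with its value in view, was at 167 ± 10.8 and 145 ± 12.3 CPM (SD, n = 3 each) and did not pass (edgeR adjusted p = 0.133).

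Around vitamin C, 4 of 8 genes fell, 2 rose and 2 missed the threshold, with a median of -0.43. All tested genes had 18.0% that fell and 19.9% that rose. With library sizes alone 2 of the 8 fell and 3 rose. Slc23a1, the ascorbate transporter of epithelia, measured 79.3, 95.9 and 83.7 CPM in control livers and 25.4, 23.8 and 24.98 CPM in knockout livers. Its groups did not overlap (log2 fold change -1.80 ± 0.10, SE, edgeR adjusted p = 4.04e-05). Ugp2, which makes UDP-glucose, fell by 0.999 and the kinase Xylb by 0.66 (edgeR adjusted p = 0.000246 and 0.00227). Slc23a2, the other ascorbate transporter, rose by 0.45, a call lost without knockout replicate 1 (edgeR adjusted p = 0.0508, with 0 that rose) and without knockout replicate 2 (0.0583, with 1).

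For retinaldehyde, 5 of 9 genes fell (3 without knockout replicate 2), beside 18.0% of all tested genes. In the same list 1 rose (0 without any 1 of the knockout replicates), beside 19.9%, and 3 missed the threshold. The list's median of -0.34 was 0.03 with library sizes alone, where 3 fell and 3 rose. Aldh1a7, the close paralog of Aldh1a1, fell from 429 ± 30.2 to 149 ± 12.3 CPM, and the alcohol and retinol dehydrogenases Adh4, Rdh16 and Adh1 fell by 1.71, 1.18 and 0.82 on the log2 scale (edgeR adjusted p = 0.000178, 0.00149 and 0.0127). The Adh1 call was lost without knockout replicate 2 (edgeR adjusted p = 0.0505). Of 8 genes of the aryl hydrocarbon receptor pathway, 2 fell (25%) and 1 rose (12.5%), beside 18.0% and 19.9% of all tested genes. Without control replicate 3, 2 rose. The list's median was 0.13, and with library sizes alone 1 fell and 3 rose. Cyp1a1, like Cyp1a2 a target of that receptor, measured 3.41, 5.69 and 4.83 CPM in control livers and 1.44, 2.36 and 1.97 CPM in knockout livers and fell (edgeR adjusted p = 0.0114). Cyp1b1, a target that fibroblasts also express, measured 0.482, 0.444 and 3.696 CPM in control livers and 39.8, 43.4 and 37.7 CPM in knockout livers and rose (edgeR adjusted p = 0.00244). The receptor gene Ahr fell by 0.62 (-0.26 with library sizes alone), a call lost without control replicate 1 or 3 or knockout replicate 1 or 2 (edgeR adjusted p up to 0.0781), where 1 fell. Tiparp, another target, stood at 0.33 and did not pass.

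The genes whose profile over the 6 livers lay nearest to that of Glul were sought among 9272 genes with a mean of at least 10 CPM, by the Euclidean distance between centred log2 levels. Among the nearest 5 were Aqp8 (0.34), a water channel, mt-Atp6 (0.46), a subunit of ATP synthase encoded by mitochondrial DNA, Prdx1 (0.67), and Cyp2f2 (0.73). The distance is in log2 units and depends mainly on the gap between genotypes. Aqp8 averaged 75.00 ± 12.8 CPM in controls and 9.16 ± 1.197 CPM in knockouts (SD, n = 3 each).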

How the data were processed

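Liver RNA of 3 Prdx1(lox/lox) and 3 Prdx1(lox/lox);Alb-cre mice was sequenced as poly(A)-selected, dUTP-marked, paired-end libraries with molecular identifiers, per the labels' protocols. In the deposited table each gene has, for each library, an estimated count and an FPKM (a level per transcript length and library size), both made by the authors. The submitters' processing notes name HISAT2 2.0.4, StringTie 1.3.4d, cutadapt 1.9 and UMI-tools, besides edgeR and DESeq2, without roles. The build listed there is mm9, but 94.2% of 55141 shared gene identifiers had the positions of GENCODE M21 (GRCm38), which is used here. Whether strand was used in counting is not given in the sources used here. The column prefix wt was taken as the control genotype, the only other one in the series. Low deposited counts piled up at 4 (854 genes in control 1, against 280 at 3 and 167 at 5), so they are not single reads, and no counting intervals are given.

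The deposited counts went into edgeR 4.0.16 under R 4.3.3 (filterByExpr, minimum count 10, minimum total 15, TMM factors, glmQLFit and glmQLFTest, genotype as the only term, Benjamini-Hochberg adjustment, threshold 0.05). The script was tested on simulated data. Alternatives used DESeq2 1.42.0, limma 3.58.1 on log2(FPKM + 0.5), other scalings and filters, a replicate block and omitted libraries. The members, lists and tests were chosen with earlier results of these data known. Named in each list are up to 4 genes with the smallest p, Axin2, Lgr5, Tbx3, Rspo3, Wnt2 and Wnt9b, the 5 genes nearest to Glul, and Prdx1 and Alb as checks; others are marked, and 2 genes that this rule names are not reported here. The labels do not say that replicates share anything. The edgeR p-values set the difference between genotypes against the variation among these mice, estimated with information shared across genes.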

Additional observations from a re-analysis of the deposited data

How the results depend on the processing

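All 10 members kept a negative fold change under all 17 alternatives. They were chosen on this contrast and the alternatives use the same livers, so nothing is read from that count. The share of all tested genes that kept their sign was not computed. The members' median was -1.78 with library sizes alone. In FPKM it was -1.75 with a pseudocount of 0.5 (also without a filter and with a mean FPKM of at least 1), -1.67 with 1 and -1.81 with 0.1. Omitting each library gave -2.34 to -1.87. The zone difference kept its sign under 14 alternatives (-0.39 to -0.20, and -0.39 to -0.21 when a library was left out). No alternative left out Cdh1 or Ctsc.

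Over all genes, 6459 were higher and 1249 lower with library sizes alone. With limma on FPKM, 6671 were higher and 1364 lower at a pseudocount of 0.5, 6650 and 1364 at 1, 6667 and 1362 at 0.1, and 5980 and 1148 without a filter; 1256 were lower at a mean FPKM of at least 1. At least 2-fold, 2329 were higher and 725 lower. Omitting a library gave 2892 to 3645 higher and 2641 to 3104 lower.

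Of the other pericentral genes, 3 were higher with library sizes alone and with limma on FPKM at pseudocounts of 0.5, 1 and 0.1 and at a mean FPKM of at least 1. At least 2-fold, 0 were higher and 9 lower by edgeR, where edgeR called 1 and 16 without a fold threshold. With a library omitted, 0 to 1 were higher and 15 to 21 lower. Of the periportal genes, 1 was higher and 5 lower at least 2-fold, and 2 were higher and 9 to 13 lower with a library omitted.

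Of the Wnt pathway genes, 25 were higher and 2 lower with library sizes alone and with limma on FPKM at pseudocounts of 0.5, 1 and 0.1. Lower were 2 in FPKM without a filter, 1 at a mean FPKM of at least 1, 7 in DESeq2 and 1 at least 2-fold. With a library omitted, 12 to 15 were higher and 1 to 6 lower. The cause of these shifts was not tested, apart from the scaling and thresholds that define them.

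Samples with the same replicate number had deviations correlated at 0.02, 0.06 and 0.04, under the 0.1 needed to pair them, although each correlated best with its own number. With a replicate block, 3269 genes were higher and 3207 lower, the members' median was -2.17, and 17 other pericentral, 12 periportal and 5 Wnt genes were lower. The zone difference and the promoter counts have no blocked fit.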
